A study of Homo sapiens with 2 samples.

Results

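BRIP1, PPM1D and BCAS3 are neighbours in band 17q23 of the long arm of human chromosome 17. Their probes were chosen by gene name: every 50 kb window of chromosome 17 that the deposited annotation assigns to 1 of the 3 genes, which gave 21 of 61607 probes. BCAS3 has 15 of them, BRIP1 has 4 and PPM1D has 2, and each overlaps its gene. The values come from 4C-seq of U2OS, a human osteosarcoma cell line carrying the transgenes DRGFP, TRE-I-SceI and Tet-On, with 1 group of 2 independent experiments, no control group and no treatment recorded. The 4C assay joins DNA ends that are held together by crosslinks and then amplifies whatever became joined to a single chosen fragment. The study asked which DNA lies near the I-SceI cutting site of DRGFP, a reporter of homologous recombination, whose fragment served as vantage point. Signal is scaled to 1000000 library reads (RPM). The lowest value, taken as 1 read, is 1.06 RPM in replicate 1 and 2.20 RPM in replicate 2. Scaled from it, the libraries hold 944456 and 454091 reads. Summed over the probes, the reads are slightly more, 947121 and 454478.

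BRIP1 encodes the FANCJ helicase, which binds BRCA1, unwinds DNA at stalled forks and is mutated in a form of Fanconi anaemia. PPM1D encodes WIP1, a p53-induced phosphatase that removes phosphates placed by the DNA damage kinases and so ends checkpoint signalling. BCAS3, breast carcinoma amplified sequence 3, encodes a protein linked to the cytoskeleton and to autophagy. The band that holds them is known for copy number gains in breast cancer. The table has no measure of copy number, so whether this DNA is gained in these cells cannot be read from it, and signal was not corrected for copy number.

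Every value below counts reads amplified outwards from the vantage fragment with these 2 primers, given 5′ to 3′ in lower case as the labels' protocol states them.
Csp6I-proximal primer: gacgttgtggctgttgtagttg
HindIII-proximal primer: cggcatcaaggtgaacttc

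The 3 genes lie within 1300 kb of each other (hg18, chr17:56000001-57300000), inside the stretch chr17:54100001-76350000 where 4C reads are frequent. This stretch was placed from the same data, and membership in it is no finding. PPM1D comes first (chr17:56000001-56100000), BCAS3 follows without a gap (chr17:56100001-56850000), and BRIP1 begins 250 kb further on (chr17:57100001-57300000). The stretch has 445 probes, and the other 1129 probes of chromosome 17 make up its rest.

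Reads reached 15 of the 21 probes in replicate 1 and 13 in replicate 2, and 12 probes had reads in both. These are 71.4% and 61.9% of the probes, with exact Clopper-Pearson 95% intervals of 47.8% to 88.7% and 38.4% to 81.9%. Over all probes, 8.06% were reached in replicate 1, 8.63% in replicate 2 and 2.48% in both. Within the whole 17q stretch the shares were 41.1%, 48.3% and 26.7%. The 424 stretch probes outside the 3 genes had reads at 39.6% in replicate 1 (34.9% to 44.5%) and at 47.6% in replicate 2 (42.8% to 52.5%). The share at the 3 genes was thus above that of the other stretch probes in both libraries. The genes and the stretch were chosen with earlier results of these data known, so setting these intervals side by side is no test. Close by, the 5 probes between BCAS3 and BRIP1 had reads at 60.0% in both replicates. Of 10 probes each, chr17:55000001-55500000 had 7 with reads in replicate 1 and 6 in replicate 2. The next 500 kb, chr17:55500001-56000000, just before PPM1D, had 5 and 7. Past BRIP1, chr17:57500001-58000000 had 2 and 3. The intervals treat probes as independent, which neighbouring probes are not, and they cover counting error only.

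The excess over the whole stretch, 21.9 ± 11.8 percentage points (SD, n = 2), depended on the number of reads required and on the probes compared. A stretch ended earlier, at chr17:71750000, had reads at 46.7% and 53.5% of its probes. Against it the excess was 24.7 points in replicate 1 and 8.36 in replicate 2. Without BCAS3 the excess over the whole stretch was 8.88 and 18.4 points. With at least 10 reads required, 23.8% of the 21 probes passed in replicate 1 and 38.1% in replicate 2, against 24.04% and 26.1% of the stretch, so that the difference turned to -0.235 points in replicate 1 and was 12.03 points in replicate 2. Probes at or above 100 RPM numbered 2 in replicate 1 and 3 in replicate 2, or 9.52% and 14.3%, near the 10.3% and 12.6% of the stretch and above the 1.49% and 1.53% of all probes. The 3 genes held 8.08% of the reads of the stretch in replicate 1 and 4.10% in replicate 2. Among probes with reads, the median level was 7.41 RPM in replicate 1 and 35.2 RPM in replicate 2, against 26.5 and 24.2 RPM at the stretch probes outside the 3 genes. Detection by at least 1 read was therefore more frequent than over the other stretch probes in both libraries. The level where reads were found was lower in replicate 1 and higher in replicate 2.

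**Figure D1:**
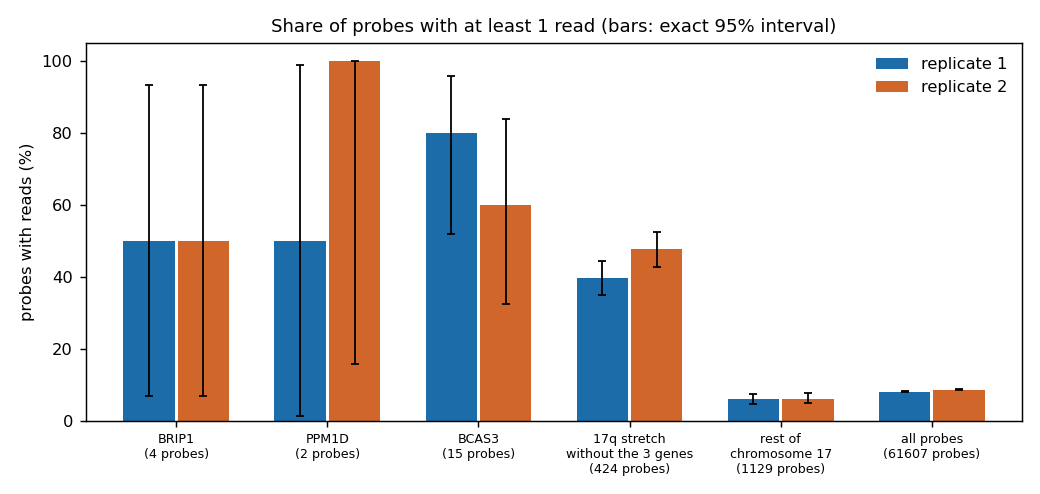
Share of probes with at least 1 read (vertical axis, percent) for each of the 3 genes, for the 17q stretch without them, for the rest of chromosome 17 and for all probes, with 1 bar per replicate and exact 95% intervals. BCAS3 stands at 80.0% and 60.0% in the 2 replicates, while the rest of chromosome 17 stands at 5.93% and 6.11%; with 4 and 2 probes, BRIP1 and PPM1D have intervals that span most of the axis.

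BRIP1, the helicase gene, carried its signal at 1 end. Its probes at chr17:57100001-57150000 and chr17:57150001-57200000 had no reads in either replicate, for which the limit that a count of 0 allows, set at 3 reads, is 3.18 RPM in replicate 1 and 6.61 RPM in replicate 2. The exact two-sided 95% interval used for probes with reads would reach 3.91 and 8.12 RPM. The probe chr17:57200001-57250000 had 772 reads (817 RPM, 95% interval 761 to 877) in replicate 1 and 118 reads (260 RPM, 215 to 311) in replicate 2. It was the eighth highest of the stretch in replicate 1 and ranked 22 in replicate 2. The last probe, chr17:57250001-57300000, had 1 read (1.06 RPM) in replicate 1 and 112 reads (247 RPM) in replicate 2. So both libraries placed reads in the same pair of neighbouring probes, and in replicate 1 a single probe held 99.9% of the gene's reads, against 51.3% in replicate 2.

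BRIP1 is read from the minus strand in RefSeq, so its end with the higher coordinates is its 5′ end, and both probes with reads lie on that side. The probe at the very end had 1 read in replicate 1, where all others lay in the probe further inside the gene, and 112 reads in replicate 2. The promoter region is shown as the sequence at this end. It covers 250 bases before the start and 50 after it in RefSeq (GRCh38.p14, chr17:61863479-61863778, minus strand), and capitals mark the letters GTAC, which Csp6I, the second enzyme of the assay, cuts.
BRIP1 promoter: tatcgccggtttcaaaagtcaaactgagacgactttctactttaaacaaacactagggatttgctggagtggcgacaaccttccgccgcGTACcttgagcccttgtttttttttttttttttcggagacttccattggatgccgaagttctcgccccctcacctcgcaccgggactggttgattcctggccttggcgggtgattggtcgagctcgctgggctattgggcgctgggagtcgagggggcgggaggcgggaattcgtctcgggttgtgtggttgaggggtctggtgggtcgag
GTAC occurs 1 time in this window and in 29.8% of 35116 RefSeq promoters of this length. AAGCTT, the letters cut by HindIII, do not occur in it, and 5.84% of the promoters hold them. Both motifs read the same on either strand. Neither occurs in the promoter windows of PPM1D and BCAS3, and windows of 50 kb do not resolve a promoter.

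PPM1D, the phosphatase gene, had few reads in replicate 1 and more in replicate 2. Its first probe, chr17:56000001-56050000, had 4 reads (4.24 RPM) in replicate 1 and 6 reads (13.2 RPM) in replicate 2. Its second, chr17:56050001-56100000, had 0 reads in replicate 1 and 22 reads (48.4 RPM) in replicate 2. The first probe was low in both libraries, and the second had reads in replicate 2 alone.

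BCAS3, the longest of the 3 genes, had reads along most of its length. Reads reached 12 of its 15 probes in replicate 1 and 9 in replicate 2, and these 9 had reads in both. None had reads in replicate 2 alone, and 3 were without reads in both (chr17:56200001-56250000, chr17:56600001-56650000 and chr17:56650001-56700000). The longest unbroken row of probes with reads was 7 in replicate 1 (chr17:56250001-56600000) and 3 in replicate 2 (chr17:56350001-56500000), and the replicate 2 row lies within that of replicate 1. The longest rows of the whole stretch were 10 and 14 probes.

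Reads in BCAS3 were uneven. The probe chr17:56450001-56500000 had 1031 reads (1092 RPM, 95% interval 1026 to 1160) in replicate 1 and 26 reads (57.3 RPM, 37.4 to 83.9) in replicate 2. It held 88.2% of the gene's reads in replicate 1, where it was the fifth highest probe of the stretch, and it ranked 73 in replicate 2. The next probe towards the start, chr17:56400001-56450000, was the highest of BCAS3 in replicate 2, with 49 reads (108 RPM), and had 1 read in replicate 1. The highest values of the 2 libraries thus fell in adjoining probes of the gene.

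The other BCAS3 probes stayed below 100 RPM in both libraries. At the gene's first probe, chr17:56100001-56150000, 36 reads (38.1 RPM) in replicate 1 stood beside 12 reads (26.4 RPM) in replicate 2. The probe chr17:56250001-56300000 had 56.1 RPM in replicate 1 and 17.6 RPM in replicate 2. At chr17:56700001-56750000 the order was the other way, with 3.18 RPM in replicate 1 and 83.7 RPM in replicate 2. Elsewhere in the gene the signal ran up to 19.1 RPM in replicate 1 and 35.2 RPM in replicate 2. Single reads were the whole signal at 2 BCAS3 probes and 1 BRIP1 probe in replicate 1 and at none of the 21 probes in replicate 2.

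**Figure D2:**
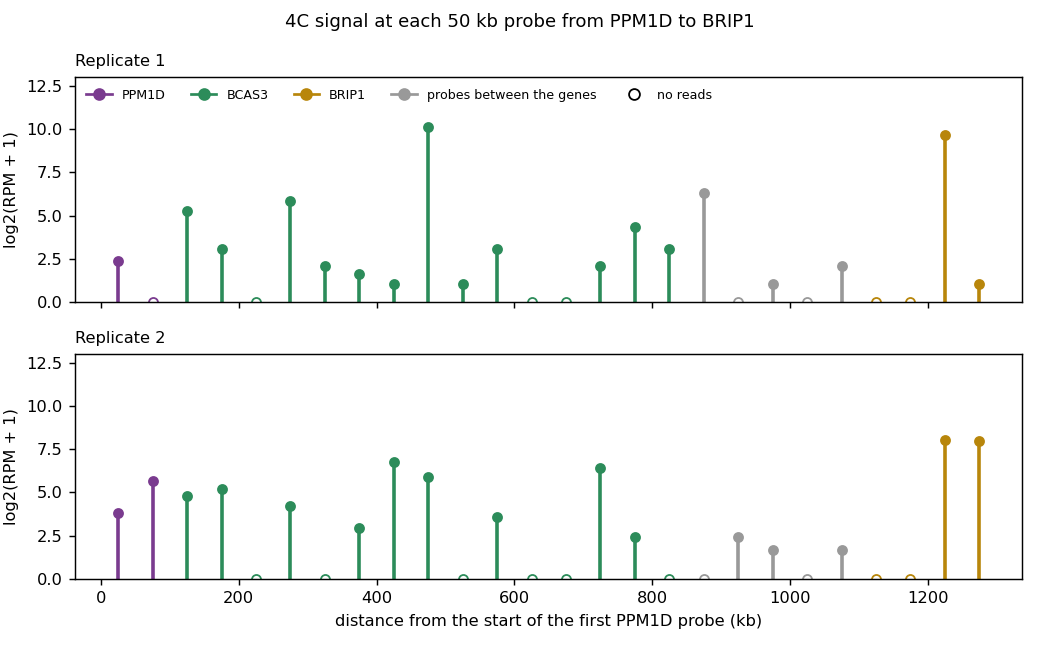
Signal as log2(RPM + 1) at each 50 kb probe, against the distance in kb from the start of the first PPM1D probe, with replicate 1 above and replicate 2 below; colours give the gene, grey marks the 5 probes between BCAS3 and BRIP1 and open circles mark probes without reads. The tallest points are the BCAS3 probe at 1092 RPM and the BRIP1 probe at 817 RPM in replicate 1, and the pair of BRIP1 probes at 260 and 247 RPM in replicate 2.

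Per probe, which sets genes of unlike length on 1 scale, BRIP1 averaged 205 RPM in replicate 1 and 127 RPM in replicate 2 (166 ± 55.1, SD, n = 2). BCAS3 averaged 82.5 and 23.3 RPM (52.9 ± 41.8), and PPM1D 2.12 and 30.8 RPM (16.5 ± 20.3). BRIP1 lay above both others in each replicate, by more than the SD of either gene. The means of BCAS3 and PPM1D differed by less than the SD of BCAS3, and their order was opposite in the 2 replicates. Without its highest probe, BRIP1 averaged 0.353 RPM in replicate 1 and 82.2 RPM in replicate 2, and BCAS3 10.4 and 17.3 RPM, so the first place of BRIP1 in replicate 1 rested on 1 probe. Over the 21 probes the mean was 98.1 RPM in replicate 1 and 43.7 RPM in replicate 2, against 57.3 and 50.4 RPM over the stretch. The medians were 3.18 and 11.01 RPM at the 3 genes and 0 RPM over the stretch in both replicates. No test over probes was made, and with 1 group of 2 experiments no permutation of samples is possible.

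Among the 180 gene names of the stretch, ranked by mean signal, BRIP1 came 14th in replicate 1 and 19th in replicate 2. BCAS3 ranked 23 and 47, and PPM1D 61 and 40. By share of probes with reads BRIP1 ranked 43 and 66, which puts it lower than by signal, with ties counted at their highest place. Of the 5 named genes with at least 8 probes in the stretch, BCAS3 is the longest and had the highest share of probes with reads in replicate 1, at 80.0%, followed by PRKCA, a protein kinase C gene, at 63.6%. In replicate 2 BCAS3 had 9 of 15 probes with reads, PRKCA 7 of 11 and CCDC46, now CEP112, 8 of 12.

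**Figure D3:**
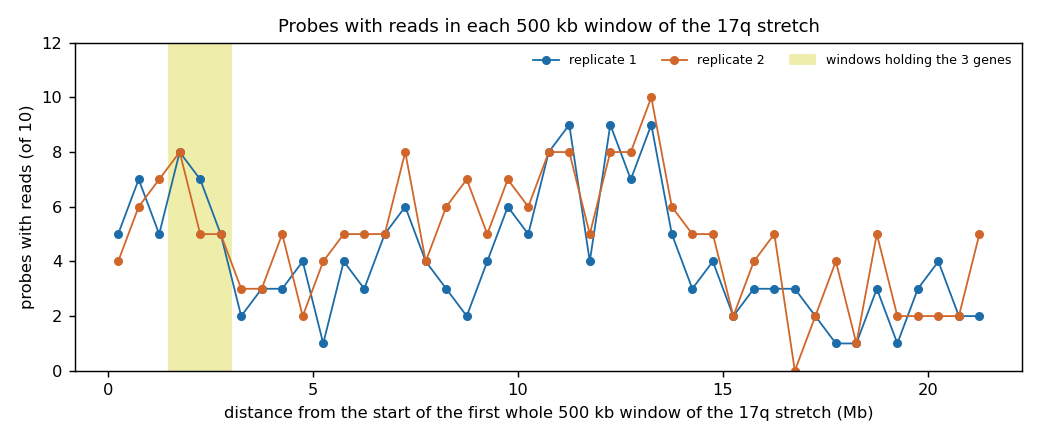
Number of probes with reads among the 10 of each 500 kb window (vertical axis), against the distance in Mb from the start of the first whole window of the 17q stretch, for both replicates; the shaded band marks the windows that hold the 3 genes. The first shaded window has 8 probes with reads in both replicates, and higher counts, up to 9 and 10, come later in the stretch.

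In windows of 500 kb the genes fall into 3 of the 43 whole windows of the stretch. The window chr17:56000001-56500000, with PPM1D and the first part of BCAS3, had reads at 8 of 10 probes in both replicates, which tied for place 4 in replicate 1 and for place 2 in replicate 2. The next window, chr17:56500001-57000000, had 7 and 5 probes with reads, and chr17:57000001-57500000, which holds BRIP1, had 5 in both. The median window of the stretch had 4 probes with reads in replicate 1 and 5 in replicate 2. By mean signal the BRIP1 window ranked 2 in replicate 1, with 161 RPM per probe, and 13 in replicate 2, with 53.7 RPM. BRIP1 probes gave 50.9% of the window's signal in replicate 1 and 94.3% in replicate 2, and without the first INTS2 probe the window's mean was 100.5 and 59.7 RPM. Windows further along the stretch had reads more often, with 9 and 10 of 10 probes in chr17:67500001-68000000. The 3 windows are therefore not the most densely reached of the stretch.

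Between the libraries, the levels at single probes often differed. An exact binomial test on the reads of each probe, two-sided and with Benjamini-Hochberg adjustment over all 8750 probes with reads, compared the 2 libraries and no conditions. Of the 16 probes of the 3 genes with reads, 8 differed at an adjusted p under 0.05, 3 higher in replicate 1 and 5 higher in replicate 2. Over all probes with reads 49.2% differed, 19.5% higher in replicate 1 and 29.7% higher in replicate 2. In the stretch 62.7% did, 25.4% higher in replicate 1 and 37.3% higher in replicate 2. The share at the 3 genes, 50%, was thus near that of all probes and below that of the stretch. The BRIP1 probe at chr17:57200001-57250000 was 3.15 times higher in replicate 1 (adjusted p = 9.51e-39, exact binomial), and the BCAS3 probe at chr17:56450001-56500000 was 19.07 times higher there (adjusted p = 2.39e-135, exact binomial). The first BCAS3 probe, at chr17:56100001-56150000, had an adjusted p of 0.467 (exact binomial), with 1.44 times as much signal in replicate 1. PCR copies are not independent molecules, so these p-values speak of reads and not of contacts.

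Where both libraries had reads, at 12 probes of the 3 genes, the median absolute log2 ratio between them was 1.89, against 2.61 at 107 other probes of the stretch. Ratios within a factor of 2 were found at 2 of the 12 probes and at 30 of the 107. Over the 21 probes Spearman's rho between the libraries was 0.465 and Pearson's r of log2(RPM + 1) was 0.50, against 0.32 and 0.31 over the 424 other stretch probes. These correlations are descriptions, since neighbouring probes come from the same libraries and many are tied without reads.

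**Figure D4:**
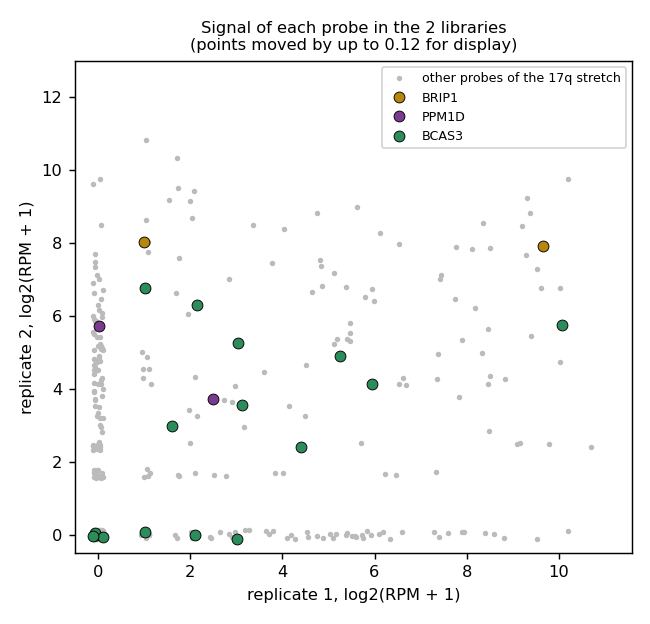
Signal of each probe of the 17q stretch as log2(RPM + 1) in replicate 1 (horizontal axis) and replicate 2 (vertical axis), with the 3 genes coloured, the other probes in grey and points moved by up to 0.12 for display. The 5 probes of BRIP1 and BCAS3 without reads in both replicates overlap at the origin, and the points of the 12 probes with reads in both are spread widely about equal levels.

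Of the gene names next to the 3 genes, APPBP2, TBX4 and INTS2 had reads and NACA2 did not. On the side of the chromosome start, APPBP2, which encodes a protein that binds the amyloid precursor protein, had 23.3 and 10.6 RPM at its 2 probes in replicate 1, and 0 and 19.8 RPM in replicate 2. Past BCAS3, TBX4, a T-box transcription factor gene of hindlimb development, had 77.3 and 0 RPM in replicate 1, and 0 and 4.40 RPM in replicate 2. INTS2, a subunit gene of the Integrator complex, follows BRIP1 directly, and its 2 probes had 703 and 0 RPM in replicate 1, and 0 and 26.4 RPM in replicate 2. In replicate 1 high values thus stood on both sides of the last BRIP1 probe, which had 1 read, and in replicate 2 the pair of high BRIP1 probes was followed by one without reads.

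Of 36 listed names of the 17q23 region, 27 matched a gene name of chromosome 17, 2 of them before the start of the stretch. Reads were found at 17 of them in replicate 1 (63.0%), at 19 in replicate 2 (70.4%) and at 14 in both (51.9%). Of all gene names of the stretch, 45.6% were reached in replicate 1, 53.3% in replicate 2 and 34.4% in both. The highest by the lower replicate were TRIM37, a ubiquitin ligase gene, whose highest probe in each replicate reached 1137 and 905 RPM, and CLTC, the clathrin heavy chain gene, with 397 and 775 RPM. TMEM49, now VMP1, an autophagy gene, had 295 and 59.5 RPM. All 3 exceeded the highest PPM1D probe in both replicates, and TRIM37 exceeded the highest BRIP1 probe in both as well. CA4 and EFCAB3 had no reads, and neither did BZRAP1, which lies before the start of the stretch.

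By likeness of the pair of mean levels in the 2 libraries (Euclidean distance on log2(mean RPM + 1), over 2 libraries), BRIP1 was nearest to HELZ, a helicase gene, at a distance of 0.43, with 151 and 125 RPM. CCDC46 and TMEM49 followed, at 0.98 and 1.91. BCAS3 was nearest to ABCA10, an ABC transporter gene, at 0.46, then to KCNH6, a potassium channel gene, and PRKCA, at 0.83 and 0.87. PPM1D was nearest to KCNJ16, an inward-rectifier potassium channel gene, at 1.17, then to MGAT5B and RGS9, at 1.32 and 1.44. Candidates were 23 genes with at least 3 probes for BRIP1 and BCAS3, and 48 with at least 2 for PPM1D, and with 2 libraries likeness is a description of 2 values.

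Reads were also frequent in other parts of the stretch. The 4 probes of SOX9, KCNJ2 and KCNJ16 had reads at 4 in replicate 1 and 3 in replicate 2, with means of 72.3 and 129 RPM. The 10 probes of the ABCA transporter genes had reads at 6 and 5, with means of 24.2 and 87.2 RPM. The 21 probes of BRIP1, PPM1D and BCAS3 lie between these sets in share of probes with reads in both replicates, and no test of the differences was made.

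Genes that work with BRIP1 and PPM1D lie mostly on other chromosomes or elsewhere on chromosome 17. Of 26 listed Fanconi anaemia and BRCA1 partner genes, 24 were found in the table, with reads at 7 in replicate 1 (29.2%), 5 in replicate 2 (20.8%) and 3 in both (12.5%), while 14.4%, 14.7% and 5.91% of all gene names had reads. No test of these shares was made. Among those with reads in both were BLM, a helicase gene, whose highest probe in each replicate had 164 and 15.4 RPM, and RBBP8, the gene of the end resection factor CtIP, with 1.06 and 4.40 RPM. BRCA2, FANCB and BTBD12, now SLX4, were among the 15 without reads in either. RAD51C, a recombinase paralogue gene that lies in the same stretch of chromosome 17, had no reads in replicate 1 and 28.6 RPM in replicate 2.

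Of the PPM1D partners, 9 besides PPM1D itself were found among 18 listed names. Reads were at 4 in replicate 1 (44.4%), 2 in replicate 2 (22.2%) and 1 in both (11.1%), against the 14.4%, 14.7% and 5.91% of all gene names. That gene was MAPK14, which encodes the kinase p38α and lies on chromosome 6. Its 1.06 and 6.61 RPM stood for 1 read in replicate 1 and 3 reads in replicate 2. The other partner gene with reads in replicate 2 lies on chromosome 12, which held 69.5% of the reads of that library. ATM, CHEK2 and MDM4 were without reads. BCAS1, BCAS2 and BCAS4, which share a name with BCAS3 and lie on other chromosomes, had no reads in either replicate, like most gene names of the table.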

How the data were processed

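The deposited signal values are, per the file headers, 1 column for each of 2 libraries over windows of 50 kb, called probes, with coordinates of hg18, as the submitters' processing notes name it. For the aligner, filters and counting tool the entry is: not given in the sources used here. Per the labels' protocols, DNA was cut with HindIII (400 U) and Csp6I and amplified by 30 and then 8 PCR cycles, with no molecular identifiers. All values (100%) were whole multiples of the lowest one within 0.1 read, which gave the reads per library. A total row, a mean row and the mitochondrial probe were left out, and spreadsheet dates were not used as gene names.

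Members, lists and the stretch were chosen with earlier results of these data known. Shares, levels, ranks and lists are descriptions. The libraries were compared per probe by an exact binomial test (scipy 1.17.1, 4305 of 8750 probes called). It was tried on simulated reads with counting error only and no PCR copies, so its error rate in these libraries is not known. Each replicate was also used alone. Named were the 3 genes, their neighbours, the 3 nearest genes by level and, of each list, the 3 highest by the lower replicate and the first 3 without reads. Names were updated through RefSeq (GRCh38.p14), and clone-based names are not printed. One listed gene is not reported here. No hg18 sequence was used, so HindIII sites per probe were not counted. The design text calls the experiments independent without naming separate cultures, so SDs (n = 2) may hold technical spread only.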

Additional observations from a re-analysis of the deposited data

How the results depend on the processing

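Of 40 values recomputed with both replicates, 22 moved by less than the spread between replicates (counts: by less than 1.5 times) and 18 by more. Leaving out 1 of 2 replicates cannot move a mean by more than that spread, so those 24 values are not counted here. The share of the 21 probes with reads, 66.7%, became 59.5% with at least 2 reads and 31.0% with at least 10, and 58.3% without BCAS3, an alternative chosen after seeing the data. Its excess over the stretch, 21.9 points, became 5.90 with at least 10 reads, 16.5 against the stretch ended earlier and 13.6 without BCAS3. With 1 replicate left out the excess ran from 13.6 to 30.3. The mean signal, 70.9 RPM, became 217 per 1000000 reads off chromosome 12. This changes the scale, somewhat more in replicate 2, where chromosome 12 held 69.5% of the reads against 66.4% in replicate 1. Without the highest probe of each gene, also chosen after seeing the data, the mean was 18.04 RPM. The median, 7.09 RPM, became 22.8 per 1000000 reads off chromosome 12. Over probes with at least 2 reads in both replicates together it was 16.9 RPM. The mean log2 difference from the stretch, 0.80, became 0.99 with a pseudocount of 0.5 and 0.30 with one of 10. The mean rank of BRIP1, 16.5 among 180 gene names, became 10.5 by highest probe and 54.5 by share of probes with reads. Among the 29 names with at least 3 probes it was 3. That of PPM1D, 50.5, became 22 by share, from place 43 in replicate 1 and a tied place 1 in replicate 2, where both its probes had reads. That of BCAS3, 35 among 180 names, became 11.5 among the 29. Places among 29 names and among 180 are on unlike scales. With at least 10 reads, a mean of 11.5 neighbour genes, 2.5 BRIP1 partners and 1 PPM1D partner passed, against 18, 6 and 3. The share of all gene names at this limit was not computed, so these counts have no background to be read against. With 1 replicate left out, the share ran from 61.9% to 71.4% and the mean signal from 43.7 to 98.1 RPM. The binomial test called 8 of the 16 probes tested under both other scalings. With at least 10 reads it called 9 of 12 (75.0%), against 95.8% of all 3726 probes tested. No paired analysis was possible because there is 1 group. At this depth a probe without reads has a limit of 3.18 RPM in replicate 1 and 6.61 RPM in replicate 2 (3 reads, counting error only).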
